A study of Caenorhabditis elegans with 8 samples.

Results

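CY251 is a Caenorhabditis elegans strain in which age-1, the gene for the catalytic subunit of phosphoinositide 3-kinase (PI3K), was restored in neurons of animals that lack it elsewhere. Its gene expression was measured against wildtype on whole-animal 2-colour Agilent arrays. The 3 arrays that the sample labels give to CY251 were taken, out of 8 in the series, and all genes on them were described. CY251 has the genotype sqt-1(sc13) age-1(mg44); bvIs2, where age-1(mg44) is a null allele, sqt-1(sc13) is a linked cuticle mutation and bvIs2 is a single integrated line of the neuronal age-1 transgene, whose promoter is not given in the sources used here. The other strains were age-1(mg44) on 2 arrays, animals that lacked zygotic age-1 but had a maternal supply from heterozygous mothers (strain SP75, in which the chromosome with sqt-1(sc13) and age-1(mg44) is balanced by mnC1), and CY262 on 3 arrays, with the genotype sqt-1(sc13) age-1(mg44); bvIs1 and age-1 restored in the intestine. Each array carried a strain in the green (Cy3) channel and N2 wildtype in the red (Cy5) channel. All animals were hermaphrodites grown on OP50 bacteria for 72 h at 20 °C from synchronised newly hatched larvae to the last larval stage or young adulthood, and the wildtype animals were at a similar or slightly later stage, so stage and strain cannot be told apart.

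The records of these arrays disagree on which strain 4 of them hold. In the authors' value table, the arrays labelled CY251 replicates 2 and 3 are listed under CY262, and the arrays labelled CY262 replicates 2 and 3 are listed under CY251. The names of the scanner files exchange only the replicate 2 arrays. CY251 replicate 1, CY262 replicate 1 and both age-1(mg44) arrays are placed alike in all 3 records. Values below follow the labels, with CY251 replicates 1, 2 and 3 in that order, and a gene is called when its adjusted p under limma was below 0.05. A gene written as risen or fallen in CY251 against wildtype was called with the same sign under all 3 assignments, unless stated otherwise. Across all genes, the log2 ratios of CY251 replicate 1 correlated at r = 0.762 with CY251 replicate 2, 0.849 with CY251 replicate 3, 0.911 with CY262 replicate 1 and 0.877 with age-1(mg44) replicate 1. These are correlations across genes, which share the wildtype channel and are not independent. CY251 replicate 1 was thus closer to the first array of each other strain than to the other arrays under its own label. The array labelled CY262 replicate 2, which 2 of the records give to CY251, was extracted from its scan on another day than the remaining 7.

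In the nematode, insulin-like peptides act on the receptor DAF-2, which recruits AGE-1 to make the lipid that activates the AKT kinases. The kinases keep the FOXO transcription factor DAF-16 out of the nucleus. When the pathway is low, larvae can arrest as dauers and adults live longer, with raised stress and detoxification genes. The study restored age-1 in 1 tissue to look for genes that the kinase controls in other tissues.

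The age-1 probe checked the strain first. Its log2 ratios over wildtype were -1.05, -1.88 and -1.43 on the 3 CY251 arrays, a mean of -1.45 ± 0.21 (SE of the fit, n = 3, limma adjusted p = 0.00319), or 2.73-fold lower. All 3 values lay below the wildtype level, and those of age-1(mg44) were -1.06 and -1.64 while those of CY262 were -1.03, -1.66 and -1.71, so the 3 strains overlapped. With the arrays as in the value table the mean was -1.47 (limma adjusted p = 0.00361). The difference between CY251 and age-1(mg44) was -0.10 ± 0.33 (SE of the fit), so no age-1 above the mutant level was measured in whole-animal RNA, and how much of the transgene's transcript this probe can read was not tested. For sqt-1, the collagen gene whose sc13 mutation all 3 strains carry, the ratios on the CY251 arrays were 0.32, 4.92 and 2.11 (limma adjusted p = 0.103). They ranged from near wildtype on replicate 1 to far above it on replicate 2, and CY262 spread as widely, at 4.40, 0.66 and 1.40.

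Against wildtype, CY251 differed at 5860 of 18873 genes (31.0%), of which 3463 were higher (18.3% of the genes tested) and 2397 lower (12.7%). At an unadjusted p under 0.05 there were 8027. The rises were the larger changes. At least 2-fold rises numbered 1813 among the genes called and 2-fold falls 445, and 732 genes rose but 26 fell by 4-fold or more. The arrays as in the value table gave 5885 called genes (31.2%; 3363 higher and 2522 lower), and those of the file names 5857 (3573 higher and 2284 lower). Of the genes called under the labels, 5185 (88.5%) were also called with the same sign under the value table and 5299 (90.4%) under the file names. Under all 3 assignments 5052 of 18877 genes were called (26.8%; 3034 higher and 2018 lower), and 4990 of them had the same sign on every array that any record gives to CY251. The mean turned sign under the value table for 1 of the genes called and under the file names for 0. When only CY251 replicate 1 stood for the strain, so that every array used had 1 placement in all records, 589 genes were called (581 higher and 8 lower). Fewer arrays also gave fewer calls. Without CY251 replicate 1 there were 4172 calls (1408 lower), without replicate 2 3450 (1044 lower) and without replicate 3 3886 (1545 lower).

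The split between higher and lower genes depended on the scaling. It was 59.1% higher as given above, 45.5% with Agilent's processed signals, 44.0% with the values of the value table, 49.3% with median centring in place of the loess fit and 80.8% with the methods' t-test. Agilent's processed signals moved the median over all genes to -0.12 and the methods' t-test to 0.48. In 4 groups of 4718 or 4719 genes, from the dimmest to the brightest wildtype signal, 695, 924, 1066 and 778 genes were called higher, and 60, 425, 784 and 1128 were called lower. Falls were called least often among the dim genes and most often among the bright ones. Of the 5860 genes, 5418 were above background in both channels on all 3 arrays. Dyes were not exchanged on any array, so a dye response of a probe cannot be told apart from a difference between strain and wildtype. The methods name 3 wildtype replicates for these 8 arrays, so arrays may share wildtype RNA, and the p-values measure the spread between these samples.

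**Figure D1:**
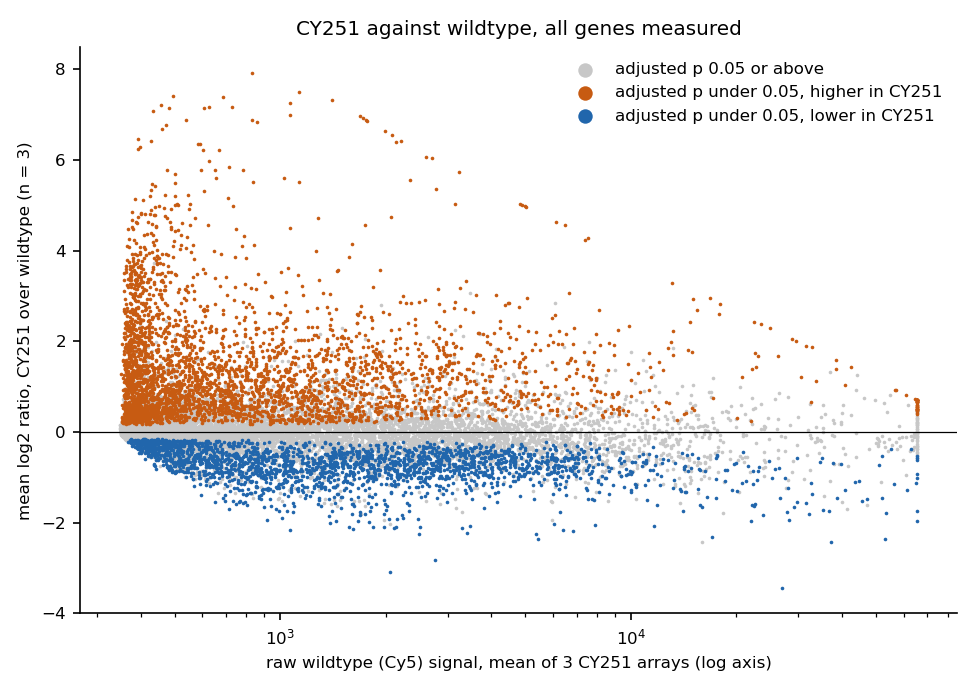
Each point is 1 gene, with the mean log2 ratio of the 3 CY251 arrays over wildtype on the vertical axis and the raw wildtype (Cy5) signal on a logarithmic horizontal axis. The 3463 genes called higher are orange, the 2397 called lower are blue and the rest are grey; the largest ratios are rises.

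The largest rises in CY251 were transcripts of sperm. All 26 genes of the major sperm protein family, the cytoskeletal proteins with which nematode sperm crawl, were called higher under all 3 assignments, with a median log2 ratio of 6.60 and array medians of 6.36, 6.71 and 6.63. The ratios of msp-31, a member whose probe is listed for more than 1 gene, were 7.83, 7.98 and 7.95, a mean of 7.92 ± 0.06 (SE of the fit, n = 3, limma adjusted p = 3.89e-08). Its values on the age-1(mg44) arrays were 7.39 and 7.31. Members of this family are nearly identical in sequence, 15 of the 26 probes are listed for several genes and 15 were saturated on at least 1 array, so their probes cannot be read as separate genes.

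Among 61 further sperm genes 51 were called higher (83.6%, beside 18.3% of all genes tested) and 0 lower. Of these calls 46 held under all 3 assignments, and the median of the list was 2.23 beside -0.01 over all genes. The gene msd-1, whose probe is listed for more than 1 gene, encodes a small protein with a major sperm protein domain. Its ratios were 7.39, 7.54 and 7.27, a mean of 7.40 ± 0.13 (SE of the fit, n = 3, limma adjusted p = 1.37e-06). The ratios of spch-1, which encodes a sperm nuclear basic protein, were 7.03, 7.37 and 7.13 (limma adjusted p = 1.15e-06). All CY251 arrays were above 7 on the log2 scale for both genes, and the age-1(mg44) arrays were close, between 6.68 and 7.13 for both genes. Further large rises came from msd-4 at 7.20, the sperm basic-protein-related nsph-3.2 at 7.15 and nsph-3.1 at 6.77, nspd-5 and nspd-1 of a nematode-specific peptide family at 7.14 and 6.35, and the sequence-named genes Y59H11AM.1 at 6.99 and F27C1.1 at 6.40. These are mean log2 ratios over 3 arrays, and each had a limma adjusted p of 0.000224 or less. Several had a dim wildtype channel, with a mean raw signal of 495 for msd-1 and 428 for F27C1.1, beside 350 for the dimmest gene tested. The sizes of the ratios moved with the processing. Over the alternatives tried the ratio ranged from 5.06 to 7.77 for msd-1 and from 3.94 to 7.08 for F27C1.1.

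Genes of other families that rose beside them included alg-3, an Argonaute needed in sperm development, at 3.16, his-70, a histone H3 variant gene, at 1.31, the cytochrome c gene cyc-2.2 at 5.12 and the adenine nucleotide translocator gene ant-1.4 at 2.50. The ratios of cyc-2.2 on the CY251 arrays were 5.35, 4.66 and 5.36, against 4.27 and 4.15 on the age-1(mg44) arrays. The arrays of these strains did not overlap for that gene, yet the difference between them was not called (limma adjusted p = 0.849). In whole animals, more cells of a type and more RNA per cell cannot be told apart, nor can fewer cells and less RNA.

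**Figure D2:**
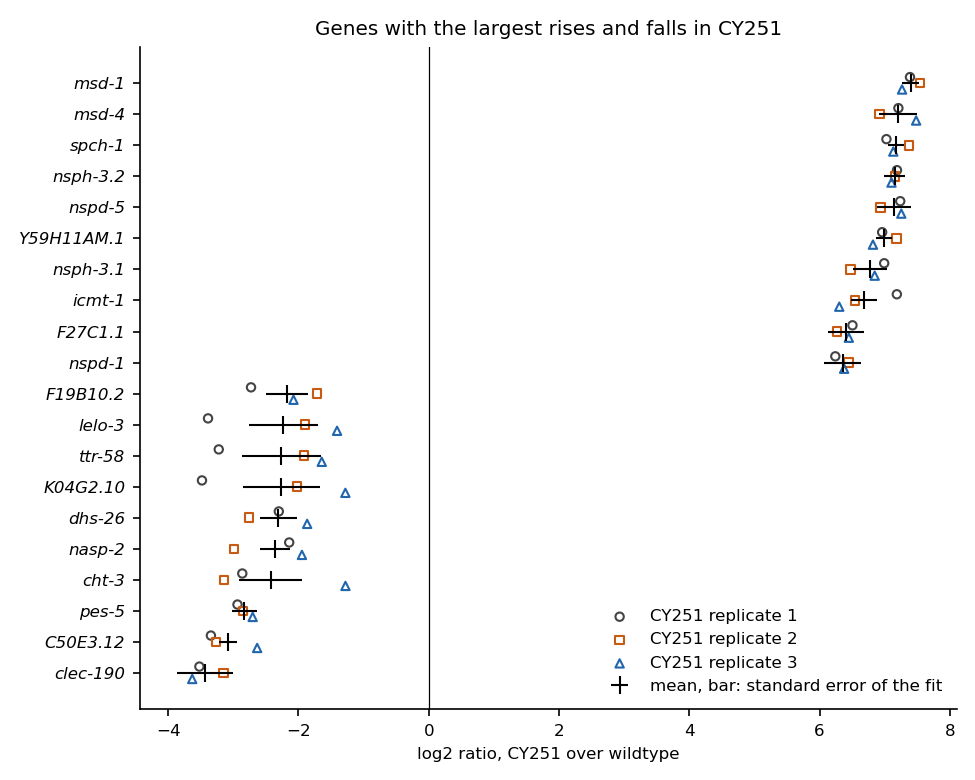
Log2 ratios over wildtype of the 10 genes with the largest rises and the 10 with the largest falls in CY251 outside the major sperm protein list, with 1 marker per array and a black bar for the mean ± SE of the fit. The rises reach 7.40 for msd-1, the falls -3.43 for clec-190, and the rises are sperm genes for the most part.

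Most transcripts of oocytes and of DNA replication were lower, as were the genes of the proliferating germline that were called. Of 28 oocyte and eggshell genes 18 were called lower (64.3%, beside 12.7% of all genes tested) and 0 higher. Their median log2 ratio was -1.12, with array medians of -0.66, -1.53 and -1.26. For cpg-1, which encodes a chondroitin proteoglycan of the eggshell, the ratios were -0.97, -2.57 and -1.72, a mean of -1.75 ± 0.44 (SE of the fit, n = 3, limma adjusted p = 0.0246), called only with both replicates 2 and 3 in the fit, as was puf-5. The ratios of puf-5, a Pumilio-family RNA-binding protein gene of late oogenesis, were -0.94, -2.34 and -2.01, and those of spn-4, which encodes an RNA-binding protein of early embryos, were -1.95, -2.11 and -1.41. Replicate 1 was the least lowered for cpg-1 and puf-5, whereas the 3 arrays lay closer together for spn-4. The mean was -1.82 for spn-4, -1.64 for mex-6, a zinc finger protein gene of early embryo polarity, and -0.90 for oma-1, which encodes a zinc finger protein of oocyte maturation. For rme-2, the yolk receptor of oocytes, the ratios were -0.55, -2.61 and -1.93 and did not pass the threshold (limma adjusted p = 0.0619). The 6 yolk protein genes had 0 calls, with a median of -0.32 under the labels and 0.03 under the value table, and all 6 were saturated on at least 1 array.

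Of the gene lists used, that of DNA replication and the cell cycle had the largest share of falls. Of 42 genes, 34 were called lower, 33 under all 3 assignments, and 0 higher (81% lower, beside 12.7% of all genes tested). For pcn-1, the sliding clamp of DNA polymerase (PCNA), the ratios were -1.51, -1.73 and -1.41, a mean of -1.55 ± 0.14 (SE of the fit, n = 3, limma adjusted p = 0.000765). For cyb-1, a B-type cyclin gene, they were -1.65, -1.84 and -1.50, and for rnr-1, the large subunit of ribonucleotide reductase, -1.29, -2.23 and -1.36. The small subunit gene rnr-2 stood at -1.72, -1.71 and -1.92, with 1 array on which the wildtype channel was saturated. All 12 of these single-array values were below -1. Of 44 germline and meiosis genes 16 were called lower (36.4%) and 0 higher while 28 did not pass, with a median of -0.52, and gld-3, which encodes an RNA-binding regulator of germline fate, had a mean of -1.15. The P-granule genes glh-1, at -0.01, -1.40 and -0.25, and pgl-1, at -0.01, -0.98 and -0.42, did not pass. Both were near wildtype on replicate 1 and lowest on replicate 2.

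Histone genes gave 14 lower calls (30.4%) and 2 higher (4.35%) among 46 on the array, of which 45 were tested. Of all genes tested 12.7% were lower and 18.3% higher. For histones, 10 of the lower calls held under all 3 assignments, and 19 probes are listed for several genes. The mean of his-33 was -1.16. Of 40 small RNA pathway genes 16 were lower (40%) and 3 higher (7.5%). Among the lower ones were ergo-1, the Argonaute of a class of endogenous small RNAs, at -1.14, and the nuclear Argonautes hrde-1, which acts in the germline, at -1.17, and nrde-3, which acts in the soma, at -1.38. The gene alg-3, given above with the sperm transcripts, went the other way. Sperm and oocyte transcripts thus moved in opposite directions in the same RNA, and the part that developmental stage has in this or any other result was not tested.

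Most cuticle collagen genes were higher, by amounts that differed between arrays. Of 147 genes named col, 98 were called higher (66.7%, beside 18.3% of all genes tested) and 0 lower, 87 under all 3 assignments. Their median was 1.62. The array medians were 1.06, 2.34 and 1.14, so replicate 2 stood above the others, and 30 of the genes were saturated on at least 1 array. For col-81 the ratios were 4.59, 7.04 and 5.72, a mean of 5.78 ± 0.50 (SE of the fit, n = 3, limma adjusted p = 0.00065), and for col-162, whose probe is listed for several genes, 3.75, 6.89 and 4.44. The gene col-85 had 4.97, 6.17 and 4.91, with 1 array saturated in the strain channel. All 3 genes were over 8-fold above wildtype on every CY251 array. Of the 20 collagens named for body-shape mutants, 9 were higher (45%) and 0 lower. Their array medians were 0.39, 3.07 and 1.70, with replicate 1 far below replicate 2.

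Among these, rol-1 had ratios of 3.68, 4.59 and 4.40 (limma adjusted p = 0.000245, saturated in the strain channel on 1 array). Those of sqt-2, whose probe is listed for more than 1 gene, were 3.23, 4.44 and 3.07 (limma adjusted p = 0.000469). The ratios of dpy-4 were 2.59, 3.72 and 2.68 (limma adjusted p = 0.000379). The values of dpy-13 were 1.37, 5.54 and 3.57 (limma adjusted p = 0.0196), a call lost without replicate 2 or 3. The first 3 genes were at least 4-fold up on all arrays, while dpy-13 ranged from the lowest value on replicate 1 to the highest on replicate 2, the order that sqt-1 also showed. Of 59 hedgehog-related and ground-like genes, a family of secreted proteins linked to the cuticle, 9 were higher (15.3%) and 2 lower (3.39%), neither share above that of all genes tested (18.3% and 12.7%). The highest means were those of grd-10 at 3.15 and grd-5 at 2.40. Astacin metalloproteases, some of which process collagen, gave 4 higher and 2 lower calls among 36 (11.1% and 5.56%), shares also below those of all genes, with nas-33 at 1.34.

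Most body wall muscle markers rose in CY251. Of 31 genes 19 were higher (61.3%, beside 18.3% of all genes tested), 17 under all 3 assignments, and 2 lower. Their median was 1.29, with array medians of 1.28, 1.16 and 1.75. On the age-1(mg44) arrays the medians were 0.79 and -0.04. Those of the CY262 arrays were 1.80, 0.85 and 1.30, so the rise was not particular to CY251. For mup-2, which encodes troponin T, the ratios were 2.99, 2.69 and 3.07, a mean of 2.92 ± 0.29 (SE of the fit, n = 3, limma adjusted p = 0.000994), and on the age-1(mg44) arrays 2.25 and 1.16. The 3 CY251 values lay above both age-1(mg44) values, but the difference was not called (limma adjusted p = 0.706). The thin filament protein gene unc-87 stood at 2.91, 2.76 and 2.83, the essential myosin light chain gene mlc-3 at 3.09, 2.59 and 2.74 and the troponin I gene tni-1 at 2.04, 3.28 and 2.67. All of these single-array values were above 2. The myosin heavy chain genes myo-3, at a mean of 2.40, and unc-54, at 1.22, and the paramyosin gene unc-15, at 1.27, rose as well. Of the 31 markers, 14 were higher in CY251 than in age-1(mg44) at an unadjusted p under 0.05 and 0 lower, beside 704 higher and 577 lower among all genes, and none of the differences passed after adjustment. By this count 14 of the 61 further sperm genes were also higher and 0 lower, and 8 and 0 of the 26 major sperm protein genes. Some lists went the other way. Of 49 glutathione S-transferase genes 0 were higher and 11 lower, and of 75 cytochrome P450 genes 0 and 11. Of 241 genes higher in daf-2 mutants 11 were higher and 30 lower.

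Genes of the insulin/PI3K pathway list, which also holds regulators of DAF-16, were called lower more often than higher. Of 25 genes 8 were called lower (32%, beside 12.7% of all genes tested) and 2 higher (8%, beside 18.3%), and all 10 calls held under each of the 3 assignments. The other 15 did not pass. Of the 25 means 12 were above 0, among them the uncalled ftt-2 at 0.44 and par-5 at 0.19. Besides age-1, the lower genes included the AKT kinase gene akt-1, which stood at -0.61, -0.80 and -0.45, a mean of -0.62 ± 0.10 (SE of the fit, n = 3, limma adjusted p = 0.00585). All CY251 arrays were below wildtype for akt-1, and so were both age-1(mg44) arrays, at -0.49 and -0.77. Some regulators of DAF-16 were lower as well, with hcf-1, a nuclear repressor of DAF-16, at a mean of -0.91, the deacetylase gene sir-2.1 at -0.57, and pptr-1, a phosphatase subunit gene acting on AKT-1, at -0.41. The heat shock factor gene hsf-1 had a mean of -0.75. Of these, pptr-1 turned sign under the methods' t-test and lost its call without any single CY251 array.

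The 2 genes called higher were sgk-1, a kinase gene related to the AKT genes, with ratios of 0.34, 0.37 and 0.83 (limma adjusted p = 0.0451), and daf-16 itself, at 0.11, 0.47 and 0.36 (limma adjusted p = 0.0457). Both lost their call when any of several single arrays was left out, and under median centring both turned to the other sign, as did daf-2 and akt-2, while under the methods' t-test daf-16 and daf-2 did. The ratios of daf-2, the receptor gene, were 0.16, 0.32 and 0.27 (limma adjusted p = 0.0829), and those of akt-2 were 0.12, 0.55 and 0.48 (limma adjusted p = 0.0606). Neither passed the threshold. Among 24 insulin-like peptide genes, which encode ligands of DAF-2, 6 were higher and 1 lower, 4 and 0 under all 3 assignments. These shares, 25% higher and 4.17% lower, stood beside 18.3% and 12.7% of all genes tested. The largest rise was that of ins-37, with ratios of 3.92, 3.55 and 3.61 and a mean of 3.69 ± 0.27 (SE of the fit, n = 3, limma adjusted p = 0.00043). It stood at 2.33 and 2.70 in age-1(mg44). The gene ins-23 had a mean of 0.79 and daf-28, a ligand gene that promotes reproductive growth, one of 0.27, which turned to -0.15 under median centring and lost its call without any single CY251 array.

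The genes commonly used as DAF-16 targets that were called were higher. Of 27 such genes 12 were called higher (44.4%, beside 18.3% of all genes tested), each of them under all 3 assignments, 0 were lower and 15 did not pass, with a median log2 ratio of 0.87 against -0.01 over all genes. For sod-3, the mitochondrial manganese superoxide dismutase gene most used as a readout of DAF-16, the ratios were 4.04, 5.10 and 4.32, a mean of 4.48 ± 0.26 (SE of the fit, n = 3, limma adjusted p = 0.000443), or 22.4-fold. The age-1(mg44) arrays read 3.99 and 4.98 and the 2 CY262 arrays that measured it 4.55 and 4.39. The 3 strains overlapped, all far above wildtype. For nnt-1, which encodes a mitochondrial transhydrogenase that makes NADPH, the ratios were 2.32, 2.22 and 2.30, a mean of 2.28 ± 0.08 (SE of the fit, n = 3, limma adjusted p = 3.26e-05). Those of age-1(mg44) were 2.32 and 2.31, within the range of CY251 or close to it. The glutathione S-transferase gene gst-10 had a mean of 1.77. Of the catalase genes, ctl-1 stood at 1.51, ctl-2 at 1.69 and ctl-3, whose probe is listed for several genes, at 1.56.

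The fatty acid desaturase gene fat-5, which makes palmitoleic acid, had ratios of 4.87, 0.34 and 3.12, a mean of 2.78 ± 0.82 (SE of the fit, n = 3, limma adjusted p = 0.0431). The call was lost when any 1 array other than CY251 replicate 2 was left out. Replicate 2 was near wildtype and the other arrays 8-fold or more above it. The lysozyme gene lys-7 showed the same order, at 4.28, 0.56 and 1.44, and did not pass under the labels (limma adjusted p = 0.0758) but passed under the value table, with a mean of 2.69 (limma adjusted p = 0.0276). The age-1(mg44) values of lys-7 were 5.47 and 3.33. For the cytochrome P450 gene cyp-35B1, which the study followed as a target outside the cells with age-1, the ratios were 2.27, 0.93 and 0.49 (limma adjusted p = 0.0953). All 3 were above 0 and all lay below those of age-1(mg44), at 4.88 and 3.22. The difference between the strains was -2.82 ± 0.75 (SE of the fit, n = 3 and 2) and was not called (limma adjusted p = 0.672). The metallothionein gene mtl-1 had 0.02, 0.24 and 1.78, without a call, and its mean turned sign under median centring and the methods' t-test.

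The lists of genes higher or lower in daf-2 mutants, taken from an earlier daf-2 study by way of the authors' supplement, were set beside these values. Of 241 genes higher in daf-2 mutants (class 1) 96 were higher in CY251 and 12 lower, with a median of 0.56. Of 230 genes lower in daf-2 mutants (class 2) 35 were lower and 52 higher, with a median of 0.01. The class 1 rises included sod-3 but also icmt-1, an isoprenylcysteine methyltransferase gene, and msp-31, both among the large rises described with sperm genes or below. The class 2 falls were led by C50E3.12 at -3.08, and dod-23, a class 2 gene by name, stood at -2.16. The share of class 1 genes called higher was 39.8%, beside 18.3% of all genes tested, and the share of class 2 genes called lower was 15.2%, beside 12.7%.

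Small heat shock protein genes differed from array to array. Of 13 genes 2 were higher (15.4%, beside 18.3% of all genes tested) and 0 lower, and the array medians were -0.51, 1.78 and 0.12. For hsp-16.2, a stress-induced chaperone gene of the HSP-16 family, the ratios were -1.995, 1.72 and -1.50 (limma adjusted p = 0.651). Those of hsp-16.1 were -2.33, 1.78 and -1.27, of hsp-16.41 -2.90, 1.90 and -0.71 and of hsp-16.48 -2.82, 1.86 and -0.63. All 4 genes were below wildtype on replicates 1 and 3 and above it on replicate 2, and none was called under any of the 3 assignments. Without replicate 1 the mean of all 4 turned to above 0. The age-1(mg44) arrays were as far apart, at 0.90 and 4.53 for hsp-16.2. By contrast, hsp-12.3, another small heat shock protein gene, read 2.000, 2.79 and 2.52, a mean of 2.44 ± 0.23 (SE of the fit, n = 3, limma adjusted p = 0.000903), and hsp-17 read 0.998, 3.14 and 0.80, short of the threshold under the labels (limma adjusted p = 0.0579) and past it under the value table (limma adjusted p = 0.0431).

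The large chaperone genes that were called, and most proteasome genes that were called, were lower. Of 24 chaperone genes 7 were lower (29.2%, beside 12.7% of all genes tested) and 0 higher, with hsp-1, an HSP70 gene, at -0.72, -1.62 and -0.91 and hsp-90 at -0.68, -1.33 and -1.42, each with 1 array saturated in the wildtype channel. The endoplasmic reticulum chaperone gene hsp-4 had a mean of -0.56. Of 33 proteasome subunit genes 11 were lower (33.3%), 9 under all 3 assignments, and 2 higher, with pbs-7 at -0.73, -1.38 and -1.32. Translation factors gave 4 lower (20%) and 1 higher (5%) calls among 20, the higher one being iff-2, which encodes an eIF5A protein, at 1.38. Cytosolic ribosomal protein genes had a median of 0.06, which turned to -0.17 under median centring, with 16 of 63 higher (25.4%, beside 18.3% of all genes tested), 2 lower (3.17%) and 41 saturated on at least 1 array.

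Genes of detoxification enzymes were called higher more often than lower, as all genes tested were (18.3% and 12.7%). Of 49 glutathione S-transferase genes, which couple glutathione to reactive compounds, 28 were higher (57.1%) and 2 lower, with a median of 0.75. The ratios of gst-26 were 1.96, 2.82 and 2.30 and those of gst-38 were 1.93, 4.25 and 2.05, with means of 2.36 and 2.74. The arrays lay within 1 unit of each other for gst-26, and replicate 2 stood apart for gst-38. Of 75 cytochrome P450 genes 20 were higher (26.7%) and 4 lower, with cyp-34A8 at 1.81. UDP-glucuronosyltransferase genes, which attach sugar acids to lipophilic compounds, gave 20 higher and 4 lower calls among 65 (30.8% higher), 20 and 2 under all 3 assignments. The higher ones included ugt-44 at 2.43 and ugt-63 at 2.22. Among 30 short-chain dehydrogenase genes 12 were higher (40%) and 2 lower, and their median of 0.43 turned to -0.26 under median centring. The cadmium-responsive gene cdr-2 had ratios of 2.61 and 1.53 on the 2 arrays that measured it, replicates 1 and 3.

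Genes of fat and sugar metabolism that were called were nearly all higher in CY251. Of 54 genes of fatty acid activation and beta-oxidation 26 were higher (48.1%, beside 18.3% of all genes tested) and 1 lower, with a median of 0.66. The ratios of acdh-1, an acyl-CoA dehydrogenase gene that responds to diet, were 5.03, 1.94 and 4.68, a mean of 3.89 ± 0.64 (SE of the fit, n = 3, limma adjusted p = 0.00542). Those of acdh-8, of the same enzyme family, were 4.76, 4.22 and 4.90, against 3.10 and 3.09 in age-1(mg44). Replicate 2 was the lowest for acdh-1, and the CY251 and age-1(mg44) arrays did not overlap for acdh-8, though that difference was not called (limma adjusted p = 0.684). The thiolase gene daf-22, which shortens the side chains of pheromone ascarosides, stood at 2.01, 1.79 and 2.05. The elongase genes elo-1, at 1.15, 1.17 and 1.22, and elo-2, at 1.26, 0.88 and 1.86, rose, and in age-1(mg44) they read 0.61 and -0.01 and 0.11 and -0.75. For elo-2 the ranges did not overlap, with all CY251 arrays above 0.8 and the age-1(mg44) arrays near or below wildtype, but the difference was not called (limma adjusted p = 0.618).

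Of 28 lipase and lipid-binding protein genes 7 were higher (25%, beside 18.3% of all genes tested) and 0 lower, with the lysosomal lipase genes lipl-1 at 1.67 and lipl-2 at 2.10. The related lipl-4 read 0.78, -0.36 and 0.39 and was not called. The putative phospholipase gene F09C8.1 had 1.90, 1.43 and 2.75 and F42A10.6, of unknown function, 1.87, 1.17 and 1.66, both called, though the call of F09C8.1 was lost without any single CY251 array. Of 25 genes of the glyoxylate cycle, gluconeogenesis and trehalose synthesis 11 were higher (44%) and 0 lower. Their median of 0.47 turned to -0.26 under median centring and -0.15 under the methods' t-test. The aldolase gene aldo-1 stood at 2.74, 2.35 and 2.54, pck-1, the phosphoenolpyruvate carboxykinase gene of gluconeogenesis, at 2.89, 1.65 and 2.01, and the glyceraldehyde-3-phosphate dehydrogenase gene gpd-3 at 1.97, 1.88 and 1.99. All 9 values were above 1.6. Mitochondrial respiratory chain genes gave 37 higher (53.6%) and 0 lower calls among 69. Their median of 0.41 turned to -0.32 under median centring and -0.26 under the methods' t-test.

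Single defence genes went both ways. Of 237 C-type lectin genes 42 were higher (17.7%) and 12 lower (5.06%), 36 and 11 of them under all 3 assignments. Neither share was above that of all genes tested (18.3% and 12.7%). The highest included clec-123, at 4.06, 3.47 and 4.30, and clec-73, at 4.16, 3.41 and 4.17. For clec-79 the wildtype channel was not above background on any CY251 array, and CY251 was at least 16.09-fold higher. By contrast clec-190 fell, at -3.52, -3.15 and -3.63, far below wildtype on all arrays. The gene clec-13, whose probe is listed for several genes, read 2.18, 1.04 and 0.88 and stood higher on both age-1(mg44) arrays, at 3.38 and 3.47. Of 44 lysozyme and saposin genes 13 were higher (29.5%), 10 under all 3 assignments, and 2 lower (4.55%). The saposin-like gene spp-2 stood at 2.61, 2.53 and 1.83. The invertebrate lysozyme gene ilys-2 read -1.88, -2.75 and -1.26, a call lost without any single CY251 array. Of 40 genes for antimicrobial caenacin and neuropeptide-like peptides 6 were higher (15%) and 2 lower (5%), shares below those of all genes. The caenacin gene cnc-4 fell, at -1.14, -0.47 and -1.64.

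Markers of different tissues had different shares of calls. Of 22 intestine markers 14 were higher (63.6%, beside 18.3% of all genes tested) and 0 lower. Their median was 0.85, with array medians of 0.60, 0.96 and 0.88. The intestinal actin gene act-5 stood at 1.68, 2.44 and 2.75, the intermediate filament gene ifb-2 at 1.64, 2.74 and 2.15 and the gut esterase gene ges-1 at 2.07, 1.72 and 2.62. All 9 values were above 1.6. The gut transcription factor gene elt-2 had a mean of 0.59 and the peptide transporter gene pept-1 one of 1.20. Pharynx markers gave 0 calls among 16, with a median of -0.04. Epidermis markers gave 4 higher (16.7%) and 2 lower (8.33%) among 24, shares below those of all genes tested (18.3% and 12.7%).

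Neuron markers, for the tissue in which age-1 was restored, had a median of 0.09, which turned to -0.15 under median centring, and 9 of 40 were called higher and 2 lower, 8 and 2 under all 3 assignments. The share higher, 22.5%, was near the 18.3% over all genes tested. The highest was unc-25, the gene for the enzyme that makes the transmitter GABA, with ratios of 1.14, 1.64 and 1.16 and a mean of 1.31 ± 0.13 (SE of the fit, n = 3, limma adjusted p = 0.00107). In age-1(mg44) it read 1.40 and 1.04, within the range of CY251 or just below it. The gene ric-19, which acts in dense-core vesicle maturation, rose by a mean of 0.75. Rises that all turned sign under median centring were those of sbt-1, a chaperone gene of neuropeptide processing, at 0.80, the carboxypeptidase gene egl-21 at 0.57, ida-1 of dense-core vesicles at 0.55, the synaptic vesicle gene rab-3 at 0.45, and unc-104, the kinesin that carries synaptic vesicle precursors, at 0.39. The touch neuron tubulin gene mec-7 fell, with ratios of -0.82, -1.11 and -0.59, and so did unc-33 of axon guidance, at a mean of -0.48, which turned to 0.53 under the methods' t-test. The gene unc-119, expressed throughout the nervous system, read -0.80, -0.17 and -0.20, without a call, and rgef-1 was not above background in either channel on any CY251 array.

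Of 30 FMRFamide-like peptide genes 3 were higher (10%) and 1 lower (3.33%), and of 57 other neuropeptide-like genes 9 (15.8%) and 2 (3.51%), with nlp-71 at 1.27. The chemoreceptor families gave 32 higher (2.49%) and 35 lower (2.72%) calls among 1285 genes, and 305 of them were not above background in either channel on any CY251 array. The largest rise there was srh-211, named as a serpentine receptor, at 3.09, 3.59 and 2.39. Nuclear hormone receptor genes gave 41 higher (15.3%) and 14 lower (5.22%) among 268, and F-box and MATH genes 43 (10.1%) and 60 (14.1%) among 426. Of all genes tested 18.3% were higher and 12.7% lower. Among the lists of this paragraph, only the share of F-box and MATH genes called lower was above that of all genes, and it was near it.

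**Figure D3:**
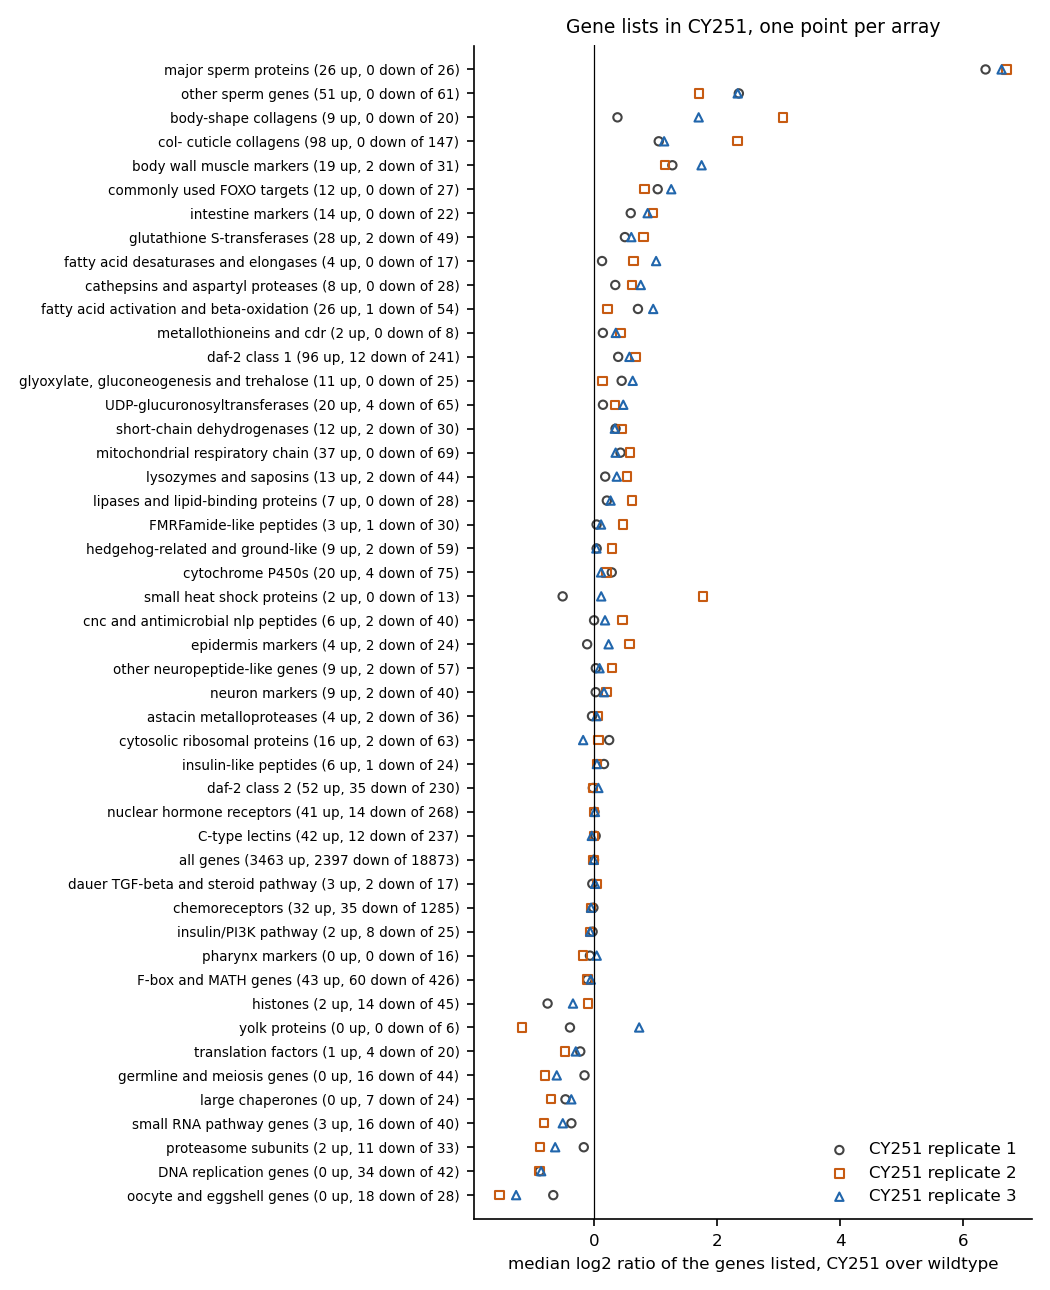
For each gene list, 1 point per CY251 array marks the median log2 ratio of its genes over wildtype, with the numbers of genes called higher and lower in the row labels. Major sperm proteins lie near 6.60 on all arrays, the oocyte and DNA replication lists lie below 0 on all 3, and the body-shape collagens and small heat shock proteins spread most between arrays.

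The largest falls in CY251 were smaller than the largest rises. The lectin gene clec-190 stood at a mean of -3.43 ± 0.43 (SE of the fit, n = 3, limma adjusted p = 0.00339). C50E3.12, a sequence-named gene, had ratios of -3.34, -3.26 and -2.63, and pes-5, a gene first found through its embryonic expression pattern, -2.94, -2.85 and -2.70. All 6 values were below -2.5, and the age-1(mg44) arrays read -2.52 and -2.53 and -2.90 and -1.86. The chitinase gene cht-3 fell by 2.43 on the log2 scale and nasp-2, a histone chaperone gene, by 2.36. The short-chain dehydrogenase gene dhs-26 read -2.30, -2.76 and -1.87 in CY251 and -0.77 and -0.55 in age-1(mg44), with no overlap, but the difference was not called (limma adjusted p = 0.672). K04G2.10 at -3.48, -2.03 and -1.28, the transthyretin-related gene ttr-58 at -3.22, -1.92 and -1.64 and lelo-3 at -3.39, -1.89 and -1.41 were all lowest on replicate 1. The call of ttr-58 was lost without any single CY251 array, and those of K04G2.10 and lelo-3 without replicate 1 or 2. F19B10.2 completed the 10 largest falls with a mean of -2.17.

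The comparison with age-1(mg44) sets the strain with the neuronal transgene beside the mutant. The age-1(mg44) animals had a maternal supply of age-1 from balanced heterozygous mothers. An effect of the transgene thus cannot be told apart from one of maternal supply, parental strain or stage. Both strains were read against wildtype in the same dye, so a dye response of a probe cancels. With the labels, 1 of 18862 genes was called (0.00530%), while 1281 had an unadjusted p under 0.05. The value table gave 4 calls (0.0212%), all lower in CY251, and the file names 61 (0.323%; 17 higher, 0.0901%, and 44 lower). The gene called under all 3 was clec-18, a C-type lectin gene, with ratios over wildtype of 0.18, 0.03 and 0.04 in CY251 and 2.92 and 2.59 in age-1(mg44). The CY251 arrays were at the wildtype level and did not overlap those of the mutant. The difference was -2.67 ± 0.15 (SE of the fit, limma adjusted p = 0.018 under the labels, 0.0262 under the value table and 0.00596 under the file names). Its probe was not above background in the CY251 channel on any of the 3 arrays nor in the wildtype channel on any of 8, and was above it on both age-1(mg44) arrays, so age-1(mg44) was at least 5.19-fold higher than CY251. When single arrays were left out, the call held without CY262 replicate 2 and was lost without any other array, with limma adjusted p values of up to 0.271 on 7 arrays. The call of clec-18 in CY251 against age-1(mg44) was also lost with the replicate number as a block (limma adjusted p = 0.182, and 0.0628 with the block in the value table's numbering), without background subtraction, under Agilent's processed signals, median centring, the fit of these strains alone and the methods' t-test, and with only the 4 arrays that all records place alike. It was not tested among probes above background or with the values of the value table.

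The genes next to the threshold on the lower side read near wildtype in CY251. For ZK355.3, of unknown function, the CY251 ratios were 0.47, 0.10 and 0.19 and those of age-1(mg44) 1.79 and 1.88, a difference of -1.58 (limma adjusted p = 0.0676 under the labels and 0.0376 under the value table). For R10D12.15 the CY251 ratios were 0.20, -0.04 and -0.02 and the mutant ratios 1.25 and 1.38 (limma adjusted p = 0.0676 and 0.0478). The genes of this paragraph were named for their small p values under the labels, so their separation is no result. The secreted-protein gene scl-19 read -0.11, -0.12 and -0.21 against 1.12 and 0.998 (limma adjusted p = 0.0676), and clec-128 differed by -1.91 (limma adjusted p = 0.0923).

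In the other direction no gene passed under the labels or with the arrays as in the value table, and 1 passed with the values of that table. T22B7.7, a gene with no other name, had ratios of -0.49 and 0.08 on CY251 replicates 1 and 3, stood 2-fold below wildtype on replicate 2, and read -5.25 and -4.80 in age-1(mg44), for a difference of 4.55 ± 0.53 (limma adjusted p = 0.184, and 0.0227 under the file names). CY251 lay near wildtype and the mutant far below it, and CY262 read -1.32, 0.11 and 0.19. T22B7.7 was named for its small p value under the labels, so its separation is no result. For icmt-1 the CY251 ratios were 7.19, 6.55 and 6.30 and those of the mutant 3.99 and 3.67, a difference of 2.85 (limma adjusted p = 0.184). Both strains were far above wildtype for that gene. The MATH-domain gene bath-13 differed by 1.20, ZK973.8 by 1.75 and Y39B6A.9 by 0.74 (lowest limma adjusted p of the 3 under the labels = 0.199). A gene past the threshold against wildtype in 1 strain and not in the other is not shown to differ between them. For sod-3 the difference between the strains was -0.0012 ± 0.41, and for nnt-1 it was -0.03 ± 0.13 (SE of the fit), neither of them called.

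**Figure D4:**
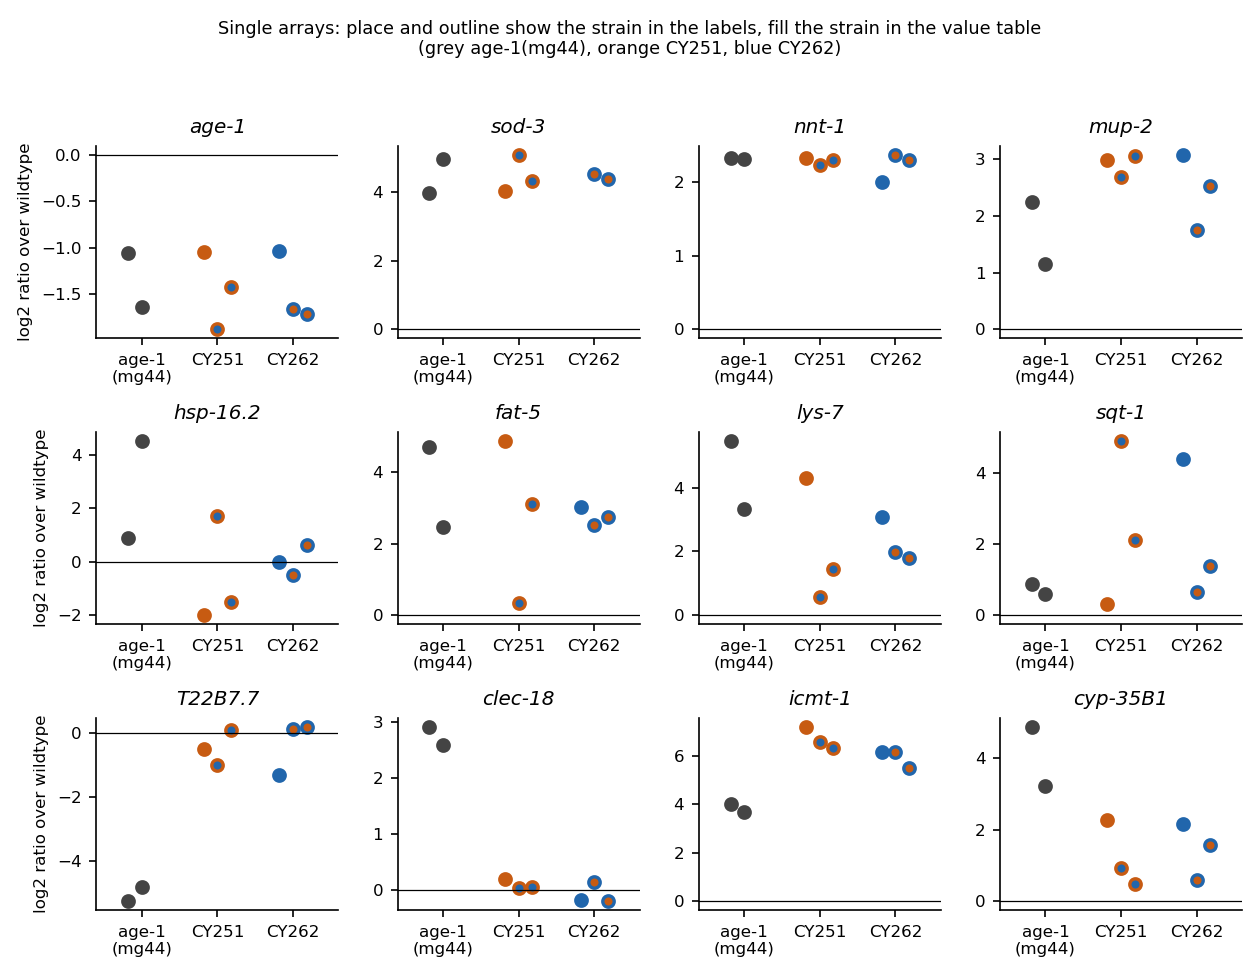
Log2 ratios over wildtype of 12 genes on all 8 arrays, where place and outline give the labelled strain and fill gives the strain in the value table. For age-1 and sod-3 the 3 strains overlap, T22B7.7 is low and clec-18 high on the 2 age-1(mg44) arrays, and sqt-1, hsp-16.2, fat-5 and lys-7 spread widely within CY251.

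The comparison with CY262 sets neurons against intestine as the tissue with age-1, and here the records of the arrays matter most. With the labels, 0 of 18873 genes were called by limma (0%) and 150 had an unadjusted p under 0.05. The value table gave 0 calls (0%) and 267 at an unadjusted p under 0.05, and the file names 28 calls (0.148%; 8 higher in CY251, 0.0424%, and 20 lower) and 1962. Genes were named here for their small p values under the labels, so their separation is no result. R102.8 had ratios of 1.83, 1.80 and 1.77 on the arrays labelled CY251 and 1.25, 1.07 and 0.75 on those labelled CY262, a difference of 0.78. For msp-31 the difference was 0.62, with CY262 ratios of 7.32, 7.19 and 7.39, and for the caenacin gene cnc-2 it was -0.97, with ratios of -1.13, -1.15 and -0.78 in CY251 and of 0.25 and -0.35 on the 2 CY262 arrays that measured it. The lowest limma adjusted p of the 10 genes so named was 0.99996.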

How the data were processed

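RNA of whole animals was hybridised to 8 2-colour Agilent arrays, with 21482 gene spots each, and 86.1% to 92.8% of the spots of a channel were above background. Per the file headers, the deposited scanner files hold raw mean signals and backgrounds as intensity, read with Agilent Feature Extraction A.7.5.1. The authors' value table holds log10 ratios of the same arrays, whose direction was settled against the scanner values, and each of its columns equals 1 array at a tolerance of 1e-05. Columns of both were taken by sample title, and where they disagree on the strain, all records were run.

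Signals were background-corrected (normexp, offset 50) and loess-normalised within each array, and outlier spots were left out. Ratios are log2 of strain (Cy3) over wildtype (Cy5). The brightest of 20401 probes stood for each of 18877 genes (823 had several probes), and 18124 genes matched the RefSeq annotation of WBcel235 by sequence name. A mean per strain was fitted over all 8 arrays in limma 3.58.1 (R 4.3.3) with Benjamini-Hochberg adjustment and a threshold of 0.05. The methods call the arrays of a strain biological replicates and do not say whether they came from separate cultures. The number of arrays limits the precision. Scripts were tested on simulated data first. Figures were drawn with matplotlib 3.10.9.

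Genes were named by rule: the pathway, the 10 largest rises and falls, up to 4 members of each list with the largest change called under all 3 assignments, genes the study names, and the 5 smallest p values in each direction between strains. A pathway gene that the rule names is not reported here, though counts over the pathway and over named genes include it. Markers named beyond the rule were chosen after their values were seen, and the members and lists were chosen with earlier results of these data known. The promoters and sequences of members were not used here. Alternatives were other backgrounds, scalings, probes, tests, sample sets, the replicate block and each array left out.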

Additional observations from a re-analysis of the deposited data

Results flagged for a closer look

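A result was set apart for a closer look where every CY251 array moved one way from wildtype and every age-1(mg44) array the other way, or where the difference between the strains passed the limma test. For clec-18 the difference between CY251 and age-1(mg44) passed the test (-2.67, limma adjusted p = 0.018). Its probe was not above background in CY251 or wildtype, so this value is bounded only as age-1(mg44) at least 5.19-fold higher than CY251. Over the alternatives tried its difference ranged from -5.18 to -0.70 and its limma adjusted p from 0.00596 to 0.679. For the caenacin gene cnc-4 all 3 CY251 arrays were below wildtype and both age-1(mg44) arrays above it, a difference of -2.08 that did not pass (limma adjusted p = 0.488). For scl-19 the CY251 arrays were slightly below wildtype and both age-1(mg44) arrays above it, a difference of -1.21 that did not pass (limma adjusted p = 0.0676).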

How the results depend on the processing

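Depth limits dim genes most, since both channels near background compress a ratio, and 3 arrays against a spread pooled over 8 limit the rest. Against wildtype, 3298 of 3645 checks of a named gene under an alternative kept the direction and the side of the threshold, 287 lost the call, 36 gained one and 24 turned sign. The medians of gene lists moved by less than their spread over arrays in 1006 of 1175 checks. Exchanging arrays as in the value table or the file names turned no named call against wildtype. Genes named for their largest changes had to be called under all 3 assignments, so for them this outcome was fixed in advance. The checks counted above include these genes.

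The number of genes called against wildtype was 12507 under median centring (6160 higher and 6347 lower), 12651 under the methods' t-test (10223 higher, 2428 lower; 13398 at the methods' own threshold without adjustment), 3611 when only the CY251 arrays were fitted (1233 lower) and 589 with only the 4 arrays whose strain all records share (581 higher and 8 lower). Agilent's processed signals gave 3918 lower genes and 7187 in all. Leaving out 1 array gave 3450 to 5736 calls, with 2341 to 3409 higher and 1044 to 2327 lower. Fewer arrays were used in these fits, and the cause of the other changes was not tested.

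With the replicate numbers of the labels, the deviations of CY251 and CY262 arrays of the same number correlated at 0.61, -0.16 and 0.23, those of CY251 and age-1(mg44) at 0.78 and 0.55 and those of CY262 and age-1(mg44) at 0.74 and 0.44. The numbers were not taken to pair the arrays because of the negative pair, whose strains the records dispute. With the replicate block 8602 genes were called against wildtype, 4164 of them lower. Between CY251 and CY262 the correlations were 0.69, 0.49 and 0.46 in the value table's assignment and 0.85, 0.53 and 0.38 in that of the file names, every CY251 array correlating best with the CY262 array of its own number in both, a hint of pairing from the data and not from the design. The value table's numbering with the replicate block, added after seeing the data, as was the fit of 4 arrays, gave 8991 calls (4250 lower).

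Against age-1(mg44), the single call became 4 with the value table, 61 with the file names and 2 with trend and robust estimates of the spread. With the values of the value table another gene was called, higher in CY251. It became 0 with the replicate block in either numbering, no background subtraction, Agilent's processed signals, median centring, probes above background, the compared strains alone, the methods' t-test and the fit of 4 arrays, and 0 to 1 with 1 array left out. Against CY262 the file names gave 28 calls, and limma gave 0 under all other settings and with each array left out.

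Under median centring daf-2 turned to -0.58, daf-16 to -0.69, akt-2 to -0.33, sgk-1 to -0.00061, daf-28 to -0.15, egl-21 to -0.29, ida-1 to -0.47, rab-3 to -0.39, sbt-1 to -0.058, unc-104 to -0.60 and mtl-1 to -0.24. Under the methods' t-test daf-2 turned to -0.21, daf-16 to -0.54, pptr-1 to 0.0015, hsp-16.2 to 0.12, ida-1 to -0.30, rab-3 to -0.060, unc-104 to -0.35, unc-33 to 0.53 and mtl-1 to -0.20. With 1 array left out, hsp-16.1 ranged from -1.80 (without CY251 replicate 2) to 0.25 (without replicate 1), hsp-16.2 from -1.75 to 0.11, hsp-16.41 from -1.80 to 0.60 and hsp-16.48 from -1.72 to 0.61. Against CY262, msp-31 turned to -0.28 and R102.8 to -0.39 with the value table, with and without the replicate block. The value table exchanges 2 of the 3 arrays of each strain, so genes named for a steady labelled difference turn there by construction. R102.8 in CY251 against CY262 turned to -0.43 with the values of the value table and to -0.0078 under the methods' t-test. The difference of cnc-2 turned to 0.55 with the value table (0.91 with the replicate block), 0.19 with the file names and 1.34 with the values of the value table.

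Calls of named genes lost without CY251 replicate 1 were those of sgk-1, pptr-1, fat-5, clec-13, ilys-2, cnc-4, cht-3, F09C8.1, K04G2.10, ttr-58, lelo-3, daf-28 and unc-33. Without replicate 2 they were daf-16, sgk-1, pptr-1, dpy-13, cpg-1, puf-5, ugt-44, ilys-2, hsp-90, cht-3, F09C8.1, K04G2.10, ttr-58, lelo-3, iff-2, nrde-3, daf-28, egl-21, oma-1, rab-3, sbt-1, unc-104, unc-33 and unc-54. Without replicate 3 they were daf-16, sgk-1, pptr-1, dpy-13, cpg-1, puf-5, fat-5, ugt-44, ilys-2, cnc-4, hsp-1, hsp-90, ins-23, F09C8.1, ttr-58, iff-2, daf-28, egl-21, oma-1, rab-3, sbt-1, unc-104 and unc-54. Without an array of another strain, at most 6 named calls were lost.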
